A study of Mus musculus with 20 samples.

Results

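The interferon response genes described here are 35 genes chosen by name, each taken as the probe set whose single gene symbol is that gene and, where a gene had several such probe sets, the one with the highest mean over all 20 arrays. Measurements were found for 33 of the 35, out of 18193 genes in all. No probe set carried Isg15 or Ifi44 as its only symbol, and neither gene was analysed here.

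Interferons are cytokines that infected, damaged or immune cells release. Type I interferons bind the receptor of Ifnar1 and Ifnar2, and Janus kinases on it activate transcription factors, among them Stat2 and Irf9, which bind a DNA element called the interferon-stimulated response element (ISRE). Interferon gamma, made mainly by T and NK cells, signals through Ifngr1 and Ifngr2, and its target genes carry the gamma-activated site (GAS). The genes that follow encode sensors of viral RNA, proteins that block viral replication, the ubiquitin-like modifier ISG15 and its enzymes, chemokines that attract T cells, and the parts of the proteasome and peptide transporter that feed MHC class I.

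RNA of liver tissue from male C57BL/6 mice was hybridised to Affymetrix expression arrays, with 5 arrays in each of 4 groups. Every mouse, controls included, carried the conditional APCko genotype, a triggerable knockout of Apc, which encodes a negative regulator of Wnt signalling. According to the sample protocols, tamoxifen (0.75 mg) was given at 6 weeks of age and the diets began 1 week afterwards and lasted 9 months, while the series' design text names DEN, a liver carcinogen, as the tumour initiator; which holds was not settled. The groups were adenomas (APCko_Adenoma) of mice fed 0.05% phenobarbital, a drug that acts on hepatocytes through the nuclear receptor CAR; carcinomas (APCko_Carcinoma) of mice without phenobarbital; non-tumour liver with phenobarbital (PB_NT); and non-tumour liver without it (H2O_NT, called untreated below). Adenomas and carcinomas therefore differed in diet as well as in tumour type, and these cannot be told apart. The driver of the recombinase and the deleted part of Apc are not given in the sources used here, and the labels do not tie the 5 samples of each group to individual animals. Values below are log2 expression, so a difference of 1 is a 2-fold change.

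Of all 18193 genes, 12589 passed an adjusted p of 0.05 between carcinomas and untreated liver, 4501 between adenomas and phenobarbital liver, and 41 between the non-tumour groups. The Apc probe set averaged 9.06 ± 0.19 in adenomas and 10.68 ± 0.17 in carcinomas, against 8.54 ± 0.12 in phenobarbital and 8.84 ± 0.13 in untreated non-tumour liver (SD, n = 5 each). Whether that probe set lies in the deleted part is not given, so it does not check the genotype. The mean level of 11 hepatocyte markers was 12.66 to 13.51 on adenoma arrays and 6.59 to 10.99 on carcinoma arrays, against 13.85 to 13.92 with phenobarbital and 14.00 to 14.17 in untreated liver. All 11 fell in carcinomas, so the labelled tissue was present in 3 groups and its defining markers were much reduced in carcinomas. In bulk tissue, fewer cells of a type and less RNA per cell cannot be told apart.

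The upstream sequences of the members show the elements that interferon-activated factors bind. RefSeq promoter windows (assembly GRCm38.p6, 250 bases before to 50 bases after a transcript start) were given for 28 of the 35 genes. Dhx58, Oas2, Mx1, Mx2, Usp18, Parp14 and Rtp4 had none. The ISRE core, the letters GAAA, any 2 bases and GAAA again, searched on both strands, occurred in 14 of the 28 (50%), against 3.99% of the 27025 genes in the table. The GAS letters TTCNNNGAA, which read the same on both strands, occurred in 7 of the 28 (25.0%), against 9.55% of all genes. Bst2, Igtp and Eif2ak2 held both, and in Bst2 they overlapped. A match of letters is a description and not a bound site. The stretches below belong to members named in the comparisons, and capitals mark the matches. The stretches of single genes are read on the strand of the gene.

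The stretch upstream of Ifit1, at chr19:34640774-34640833 (plus strand), holds 2 ISRE matches, both in the reverse orientation.
Ifit1: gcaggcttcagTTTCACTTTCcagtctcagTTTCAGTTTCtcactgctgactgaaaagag
That of Bst2, at chr8:71537568-71537627 (minus strand), holds 2 ISRE matches that share 4 bases, and the GAS match begins before the capitals and runs into them.
Bst2: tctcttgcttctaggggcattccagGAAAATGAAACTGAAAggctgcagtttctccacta
That of Cxcl10, at chr5:92349068-92349127 (minus strand), holds 1.
Cxcl10: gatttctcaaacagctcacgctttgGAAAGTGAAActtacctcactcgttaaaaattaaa
That of Gbp2, at chr3:142620579-142620638 (plus strand), holds 1.
Gbp2: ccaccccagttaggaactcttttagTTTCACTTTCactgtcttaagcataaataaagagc
That of Stat2, at chr10:128270251-128270310 (plus strand), holds 1.
Stat2: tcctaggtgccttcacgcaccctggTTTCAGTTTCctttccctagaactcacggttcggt
That of Psmb8, at chr17:34198073-34198132 (plus strand), holds a GAS match.
Psmb8: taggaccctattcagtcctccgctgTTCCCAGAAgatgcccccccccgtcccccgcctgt
Tap1 and Psmb9 are transcribed away from each other, and the 225 bases between their starts, at chr17:34187331-34187555 (plus strand), hold neither motif. They are shown because the 2 genes share them and were lower together in carcinomas.
Tap1-Psmb9: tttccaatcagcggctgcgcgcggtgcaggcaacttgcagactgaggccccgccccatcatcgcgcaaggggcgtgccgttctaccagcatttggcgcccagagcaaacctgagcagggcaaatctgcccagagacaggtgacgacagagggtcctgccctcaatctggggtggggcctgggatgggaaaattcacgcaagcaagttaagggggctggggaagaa

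**Figure D1:**
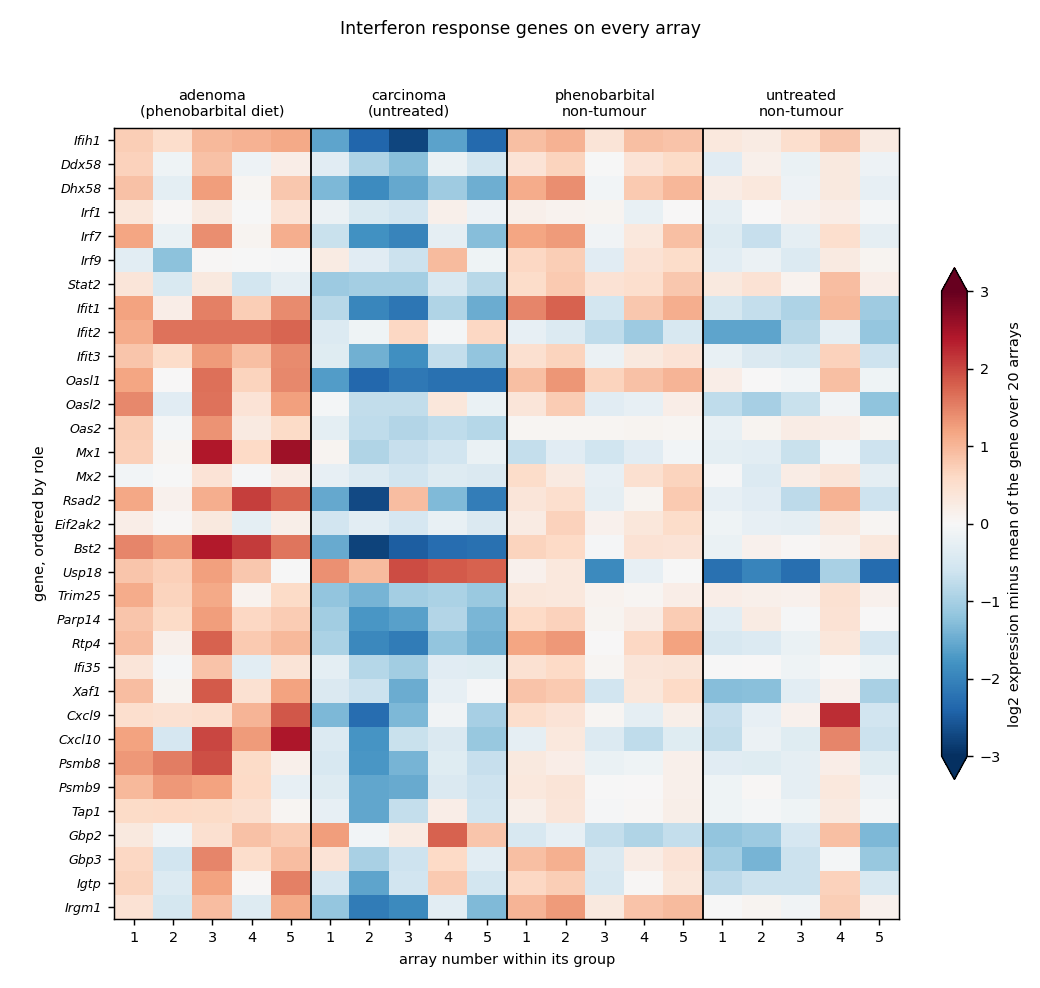
Log2 expression of the 33 measured interferon response genes (rows, ordered by role) on each of the 20 arrays (columns, 5 per group), shown as the difference from each gene's mean over all arrays, with colours ending at 3 in either direction. Most rows are blue in carcinomas and red in adenomas; Usp18 and Gbp2 are red in carcinomas, and untreated array 4 is redder than its group in most rows.

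The 4 groups were ranked by their mean for each member. Adenomas had the highest mean for 22 of the 33 genes, phenobarbital liver for 9, carcinomas for 2 (Usp18 and Gbp2) and untreated liver for 0. Carcinomas had the lowest mean for 26, untreated liver for 6 and adenomas for 1 (Irf9). The same ranks were not counted over all genes, so these counts describe the members and do not set them apart. The plot of all members by array shows these ranks together with the spread inside each group.

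In carcinomas, 21 of the 33 interferon response genes were lower than in untreated liver and 3 were higher (Usp18, Ifit2 and Gbp2). The falls took in the 3 cytosolic RNA sensors, 7 of 11 antiviral effectors and all 3 measured genes of MHC class I peptide supply. The median log2 fold of the members was -0.77, against -0.12 over all genes. Among all genes, 69.2% were called in this comparison, 37.7% lower and 31.5% higher, so the members' share of calls in either direction (24 of 33) was near the background and their share of falls (63.6%) was above it. All 5 carcinoma arrays lay below all 5 untreated arrays for 13 members, against 27.8% of all genes, and above them for 1, Usp18, against 25.6%.

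All 3 RNA sensors fell, and Ifih1 had the largest fall of any member. Ifih1 encodes MDA5, a cytosolic sensor of long double-stranded RNA. It read 7.70, 6.90, 6.53, 7.66 and 6.94 in carcinomas, against 9.60, 9.52, 9.79, 10.08 and 9.54 in untreated liver. The groups were separated by almost 2 log2 units, and the log2 fold was -2.56 ± 0.20 (SE, adjusted p = 7.4e-10), a 5.9-fold fall. Dhx58 encodes LGP2, a helicase of the same family that modulates the other sensors, and read 5.31, 4.77, 5.13, 5.59 and 5.19 in carcinomas, against 6.88, 6.97, 6.51, 6.96 and 6.42 in untreated liver. These did not overlap either, with a log2 fold of -1.55 ± 0.28 (adjusted p = 6.1e-05). Ddx58 encodes RIG-I, the sensor of 5′-triphosphate RNA, and read 8.11, 7.53, 7.19, 8.25 and 7.89 in carcinomas, against 8.11, 8.60, 8.24, 8.74 and 8.30 in untreated liver. Its groups overlapped and its fall was smaller, at -0.60 ± 0.22 (adjusted p = 0.02).

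Of the transcription factors, Stat2, which acts with Irf9 on the ISRE, fell most. It read 5.15, 5.22, 5.22, 5.77 and 5.41 in carcinomas, against 6.53, 6.67, 6.34, 7.16 and 6.43 in untreated liver, without overlap (log2 fold -1.27 ± 0.18, adjusted p = 5.2e-06). Irf7, which drives the second wave of type I interferon, read 7.35, 6.20, 6.03, 7.74 and 6.75 in carcinomas, against 7.63, 7.33, 7.74, 8.53 and 7.74 in untreated liver. The highest carcinoma reached the untreated median, and the log2 fold was -0.98 ± 0.37 (adjusted p = 0.025). Irf1, a factor that interferon gamma induces, had a log2 fold of -0.25 ± 0.13 and Irf9 one of 0.13 ± 0.28, and neither passed the test (adjusted p = 0.093 and 0.69).

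Among the antiviral effectors, Bst2 and Oasl1 fell by more than 2 log2 units. Bst2, also called tetherin, holds budding virus at the cell surface, and read 8.28, 7.01, 7.33, 7.51 and 7.56 in carcinomas, against 9.60, 9.93, 9.82, 9.89 and 10.11 in untreated liver (log2 fold -2.34 ± 0.22, adjusted p = 1.3e-08). Oasl1, a member of the oligoadenylate synthetase family that in mouse limits translation of Irf7, read 5.89, 5.20, 5.41, 5.32 and 5.33 in carcinomas, against 7.75, 7.57, 7.47, 8.47 and 7.43 in untreated liver (log2 fold -2.31 ± 0.25, adjusted p = 1.3e-07). Neither gene's groups overlapped. Ifit1, which binds viral RNA that lacks the host cap methylation, read 6.69, 5.57, 5.37, 6.62 and 6.04 in carcinomas, against 7.01, 6.82, 6.60, 8.51 and 6.47 in untreated liver. The groups touched, and its fall of -1.02 ± 0.43 just passed (adjusted p = 0.04). Ifit3, Oas2, Eif2ak2 (the RNA-activated kinase PKR) and Mx2 also fell, with log2 folds from -0.90 to -0.35. Rsad2, which encodes viperin, an enzyme that makes a chain-terminating nucleotide, read 7.54, 6.38, 10.01, 7.75 and 7.0 in carcinomas, against 8.84, 8.74, 8.30, 10.14 and 8.46 in untreated liver. Carcinoma array 3 stood more than 2 log2 units above the other carcinomas, and the log2 fold of -1.16 ± 0.52 did not pass (adjusted p = 0.052).

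The 3 genes that rose in carcinomas belong to 3 different roles. Usp18, the protease that removes ISG15 from proteins and also damps signalling at the receptor chain Ifnar2, read 10.66, 10.23, 11.23, 11.11 and 11.06 in carcinomas, against 7.04, 7.31, 7.03, 8.30 and 6.96 in untreated liver. Every carcinoma lay almost 2 log2 units or more above every untreated array, and the log2 fold was 3.53 ± 0.36 (adjusted p = 3.9e-08), an 11.6-fold rise. Gbp2, a guanylate-binding GTPase induced by interferon gamma whose upstream ISRE match is shown above, read 8.20, 6.85, 7.19, 8.70 and 7.77 in carcinomas, against 5.75, 5.85, 6.44, 7.85 and 5.58 in untreated liver. Untreated array 4 alone overlapped the carcinomas, and the log2 fold was 1.45 ± 0.37 (adjusted p = 0.002). Ifit2, a partner of Ifit1 and Ifit3 in their complex, read 6.82, 7.10, 7.85, 7.16 and 7.83 in carcinomas, against 5.64, 5.64, 6.39, 6.94 and 6.07 in untreated liver (log2 fold 1.21 ± 0.25, adjusted p = 0.00023). The lowest carcinoma lay below untreated array 4 and above the rest. Its neighbours on chromosome 19, Ifit1 and Ifit3, were lower in the same tumours.

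Of the other roles, Trim25, a ligase for ISG15 and ubiquitin that activates RIG-I, and Parp14, an ADP-ribosyltransferase, fell by -1.35 ± 0.15 and -1.41 ± 0.19 on the log2 scale, and Rtp4 and Ifi35 fell by -1.27 ± 0.29 and -0.53 ± 0.19. Xaf1 had a log2 fold of 0.17 ± 0.36 and did not pass. The chemokine Cxcl9, a CXCR3 ligand that attracts T cells, fell by -1.39 ± 0.46, while Cxcl10, another CXCR3 ligand, had -0.79 ± 0.46 (adjusted p = 0.13). Psmb8, a subunit of the immunoproteasome, read 8.99, 7.72, 8.07, 9.09 and 8.77 in carcinomas, against 9.11, 9.10, 9.20, 9.66 and 9.10 in untreated liver. All carcinomas lay below all untreated arrays, by 0.01 at the closest, with a log2 fold of -0.71 ± 0.29 (adjusted p = 0.038). Psmb9, another immunoproteasome subunit, fell by -0.86 ± 0.27 and Tap1, a subunit of the peptide transporter, by -0.56 ± 0.22. Irgm1, an immunity-related GTPase, fell by -1.54 ± 0.33, whereas Gbp3, Oasl2 and Igtp had log2 folds of 0.67, 0.47 and -0.13 and did not pass.

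These falls stood beside a change of the whole tissue. In carcinomas all 11 hepatocyte markers fell (median log2 fold -4.53), as did 8 of 10 endothelial markers (-2.06). Of 8 hepatic stellate and fibroblast markers 6 rose and 1 fell (2.35), and 7 of 8 pan-leukocyte markers rose and Lcp1 fell. Other immune lists fell in part. Of 7 B and plasma cell markers 6 fell (median -0.67), and of 6 neutrophil markers 4 fell (-0.62). Of 17 macrophage and Kupffer cell markers 7 fell, among them Cd5l (-4.02 ± 0.44) and Clec4f (-3.63 ± 0.24), and 6 rose. Of 14 T and NK cell markers 5 fell and 3 rose (-0.09). Among all genes 37.7% fell and 31.5% rose in this comparison. The part of all these cell types in the members' falls was not tested. Untreated array 4 was the highest of its group for most members, and without it 14 members fell and 3 rose, with Ddx58, Eif2ak2, Ifit1, Irf7, Mx2, Psmb8 and Tap1 no longer past the test (adjusted p 0.056 to 0.14). Leaving out carcinoma array 2 or carcinoma array 3 left 15 falls in each case; Ifi35 no longer passed without the second of these (adjusted p = 0.055).

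**Figure D2:**
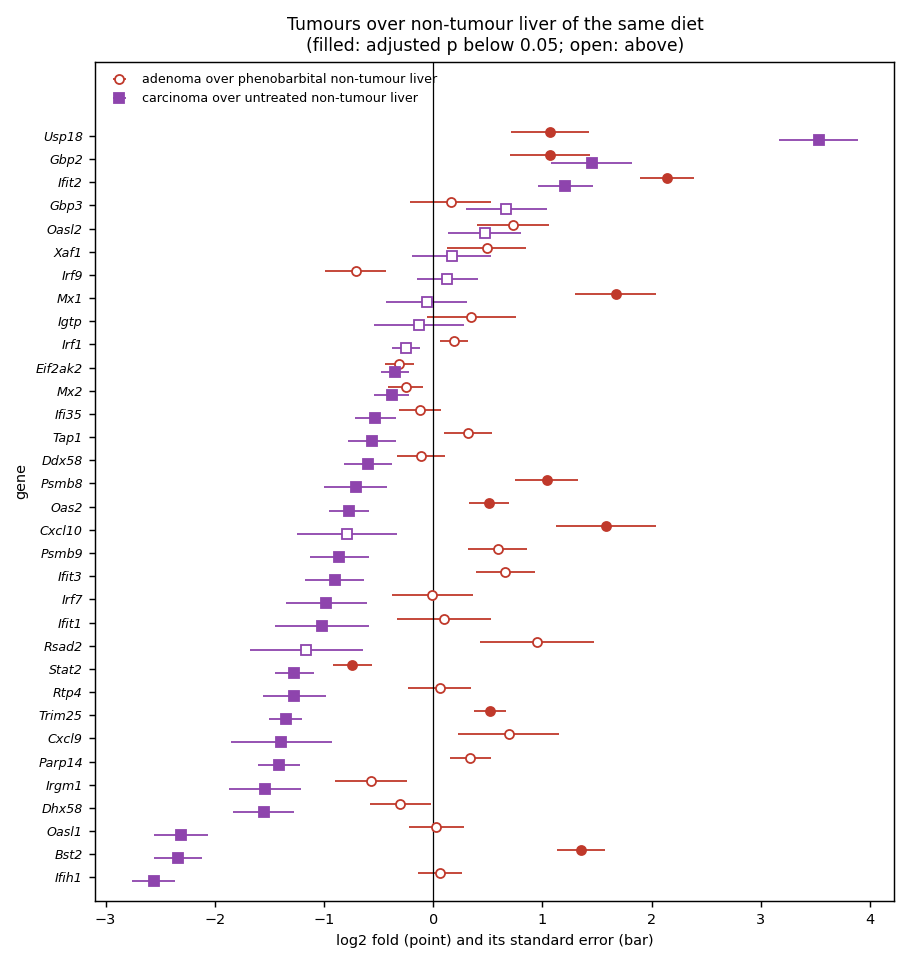
Log2 fold (point) with its standard error (bar) of each of the 33 members in adenomas over phenobarbital liver (circles) and in carcinomas over untreated liver (squares), 5 arrays per group; filled symbols passed an adjusted p of 0.05. Squares lie left of 0 for most genes, down to -2.56 for Ifih1, while circles lie mostly right of 0, up to 2.14 for Ifit2.

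In adenomas, 9 of the 33 members were higher than in phenobarbital liver (Ifit2, Mx1, Cxcl10, Bst2, Usp18, Gbp2, Psmb8, Trim25 and Oas2) and 1, Stat2, was lower. Among all genes, 24.7% were called, 13.5% higher and 11.3% lower. The median log2 fold of the members was 0.34, against -0.03 over all genes. The 3 RNA sensors had log2 folds from -0.30 to 0.06 and none passed, and all 5 adenoma arrays lay above all 5 phenobarbital arrays for 4 members (12.1%), near the 10.4% of all genes, and below them for 1, Stat2, against 9.03%.

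Ifit2 had the largest rise. It read 8.34, 8.85, 8.84, 8.84 and 8.97 in adenomas, against 6.98, 6.82, 6.47, 6.13 and 6.73 in phenobarbital liver, more than 1 log2 unit apart at the closest (log2 fold 2.14 ± 0.25, adjusted p = 3.6e-06). Its close relatives Ifit1 and Ifit3 had log2 folds of 0.10 ± 0.43 and 0.66 ± 0.27 and did not pass (adjusted p = 0.89 and 0.083). Ifit1 read 8.73, 7.74, 9.04, 8.26 and 8.94 in adenomas, against 8.99, 9.31, 6.97, 8.33 and 8.62 in phenobarbital liver, and the groups overlapped, with phenobarbital array 3 below the rest.

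Mx1, a gene of the dynamin-like GTPase family, read 6.02, 5.36, 7.71, 5.89 and 7.84 in adenomas, against 4.58, 4.97, 4.71, 4.96 and 5.22 in phenobarbital liver. Mx1 was dim outside adenomas, with group means of 4.85 to 4.91, and the filter on dim probe sets removes it, so its folds are limited by signal near background. Adenomas 3 and 5 stood well above the other 3, whose margin over phenobarbital liver was small, and the log2 fold was 1.67 ± 0.37 (adjusted p = 0.0022). Mx2 had a log2 fold of -0.25 ± 0.16 (adjusted p = 0.3). Cxcl10 read 7.92, 6.22, 8.73, 8.0 and 9.15 in adenomas, against 6.46, 7.03, 6.31, 5.96 and 6.35 in phenobarbital liver. Adenoma array 2 lay inside the phenobarbital range and the other 4 above it (log2 fold 1.58 ± 0.46, adjusted p = 0.017).

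Bst2 read 11.25, 11.06, 12.16, 11.90 and 11.40 in adenomas, against 10.47, 10.38, 9.76, 10.22 and 10.20 in phenobarbital liver, without overlap (log2 fold 1.35 ± 0.22, adjusted p = 0.00016). Psmb8 read 10.75, 10.99, 11.40, 10.03 and 9.61 in adenomas, against 9.76, 9.65, 9.26, 9.33 and 9.61 in phenobarbital liver. Adenoma array 5 was inside the phenobarbital range, and the log2 fold was 1.04 ± 0.29 (adjusted p = 0.013). Psmb9 and Tap1, next to it on chromosome 17, had log2 folds of 0.59 ± 0.27 and 0.32 ± 0.22 and did not pass (adjusted p = 0.11 and 0.31).

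Stat2 was lower in adenomas too, at 6.60, 5.78, 6.53, 5.70 and 5.98, against 6.80, 7.03, 6.68, 6.75 and 7.04 in phenobarbital liver. The groups did not overlap (log2 fold -0.74 ± 0.18, adjusted p = 0.0057), and a second Stat2 probe set had a log2 fold of -0.45 (adjusted p = 0.022 over all probe sets with a single symbol). Irf9 had -0.71 ± 0.28 (adjusted p = 0.074) and Irf7 -0.01 ± 0.37 (adjusted p = 0.99). Irf7 read 9.21, 7.81, 9.41, 8.10 and 9.10 in adenomas, against 9.20, 9.30, 7.90, 8.34 and 8.92 in phenobarbital liver, so both groups spread over more than 1 log2 unit and overlapped.

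Usp18 ran from 9.28 to 10.52 in adenomas, with a median of 10.09, against 9.41, 9.59, 7.36, 9.04 and 9.26 in phenobarbital liver (log2 fold 1.07 ± 0.36, adjusted p = 0.034). Phenobarbital array 3, at 7.36, stood well below the rest of its group, at 9.04 to 9.59. Gbp2 read 7.22, 6.83, 7.41, 7.81 and 7.69 in adenomas, against 6.46, 6.69, 6.23, 6.03 and 6.22 in phenobarbital liver, without overlap (log2 fold 1.07 ± 0.37, adjusted p = 0.043). Trim25 and Oas2 rose by 0.52 ± 0.15 and 0.51 ± 0.18. The calls of Usp18, Gbp2, Oas2 and Trim25 were each lost in several settings. Without adenoma array 3 none of the 4 passed (adjusted p 0.053 to 0.13) and 6 members were called. Without phenobarbital array 3 the log2 fold of Usp18 was 0.67 (adjusted p = 0.091). Oas2 and Gbp2 were also lost without phenobarbital array 1 or 5 (adjusted p 0.063 to 0.08). With every array kept, Oas2, Trim25 and Usp18 were lost when only the 2 groups compared were fitted (adjusted p 0.053 to 0.094). Gbp2 and Oas2 were lost with quantile normalization (adjusted p 0.053 and 0.094).

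Some cell markers moved with these rises as well. Of 8 pan-leukocyte markers 6 rose in adenomas over phenobarbital liver (median log2 fold 1.03), among them Cd48 (1.52 ± 0.35) and Ptprc, which encodes CD45 (1.26 ± 0.37). Of 7 MHC class II genes 6 rose, and of 17 macrophage and Kupffer cell markers 2 rose and 6 fell. Of 14 T and NK cell, 7 B and plasma cell and 6 neutrophil markers, 0 passed, and of 8 dendritic cell markers 1 rose. Among all genes 13.5% rose and 11.3% fell in this comparison. The part of all these cell types in the members' rises was not tested.

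**Figure D3:**
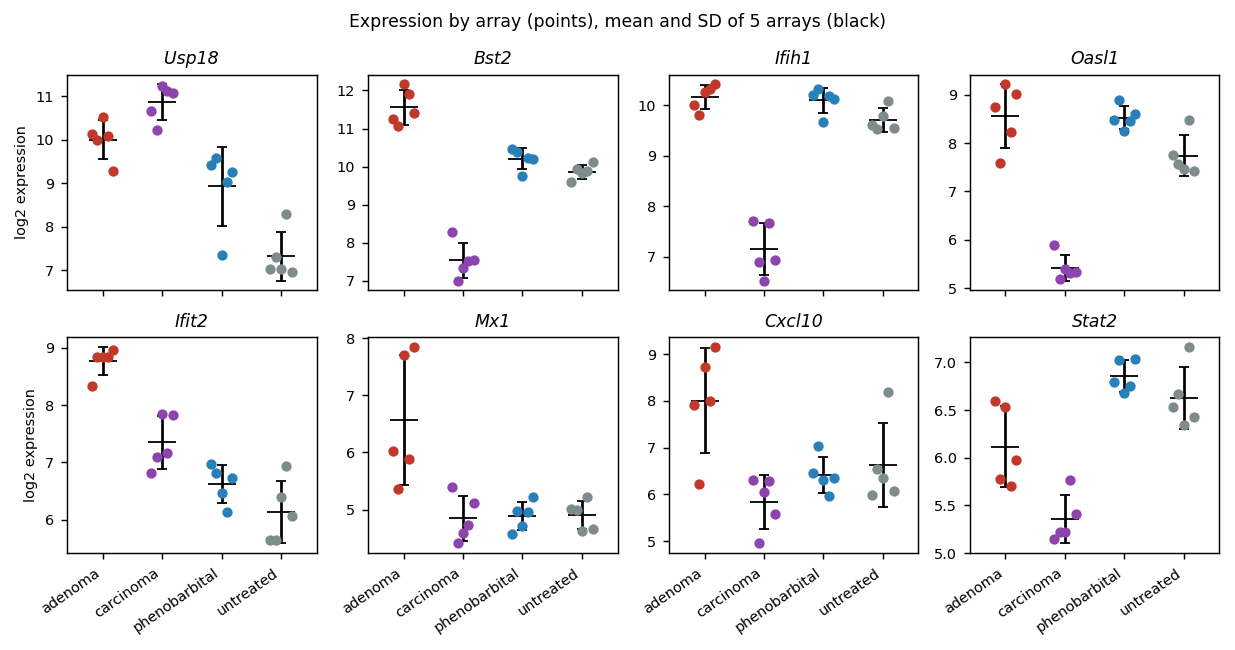
Log2 expression of 8 members on each array (points; 5 per group), with the mean and SD of each group in black; each panel has its own vertical range. Usp18 is highest in carcinomas (mean 10.86), Bst2, Ifit2, Mx1 and Cxcl10 are highest in adenomas, Ifih1 and Oasl1 are low in carcinomas, and Stat2 is lower in both tumour groups than in non-tumour liver.

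Set against each other, the tumours differed in 30 of the 33 members, of which 29 were higher in adenomas and 1, Usp18, was lower. Among all genes, 62.3% were called, 33.7% higher and 28.7% lower. The median log2 fold of adenomas over carcinomas was 1.67 for the members and 0.10 over all genes. For 18 members (54.5%) all adenomas lay above all carcinomas, against 21.8% of all genes. All 3 RNA sensors, all 11 measured antiviral effectors, both chemokines and all 3 antigen-processing genes were higher in adenomas.

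Bst2 differed most, with 11.06 to 12.16 in adenomas against 7.01 to 8.28 in carcinomas (log2 fold 4.02 ± 0.22, adjusted p = 5.2e-12), which is 16.2-fold. Oasl1 read 8.74, 7.58, 9.21, 8.22 and 9.01 in adenomas and 5.20 to 5.89 in carcinomas (log2 fold 3.12 ± 0.25, adjusted p = 1.9e-09). Ifih1 read 10.01, 9.81, 10.25, 10.31 and 10.41 in adenomas and 6.53 to 7.70 in carcinomas (log2 fold 3.01 ± 0.20, adjusted p = 8.1e-11). None of these 3 overlapped between the tumours. Rsad2 read 10.24, 9.21, 10.18, 11.17 and 10.84 in adenomas, with a log2 fold of 2.59 ± 0.52 (adjusted p = 0.00022); carcinoma array 3, at 10.01, was the only carcinoma that reached the adenoma range. Ifit1, Rtp4, Cxcl10, Parp14, Ifit3, Cxcl9, Psmb8 and Dhx58 had log2 folds between 2.0 and 2.48. Dhx58 read 7.54, 6.36, 7.91, 6.71 and 7.46 in adenomas and Ddx58 9.14, 8.33, 9.33, 8.29 and 8.65, each above every carcinoma.

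Usp18 was the exception, at 9.28 to 10.52 in adenomas and 10.23 to 11.23 in carcinomas (log2 fold -0.86 ± 0.36, adjusted p = 0.044). That call was lost in 10 of the settings tried, with adjusted p from 0.056 to 0.18, among them the omission of adenoma array 1, 2, 4 or 5 or of carcinoma array 3, 4 or 5. Gbp2, Gbp3 and Irf9 did not pass, with log2 folds of -0.35, 0.77 and -0.33. Igtp passed (1.10 ± 0.41, adjusted p = 0.024) but not without carcinoma array 2 or adenoma array 3 or 5 (adjusted p 0.064 to 0.08).

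The difference of the tumour effects, the adenoma fold over phenobarbital liver minus the carcinoma fold over untreated liver, takes each tumour relative to its own non-tumour liver. It passed for 18 members, 17 with the higher fold in adenomas and 1, Usp18, with the higher fold in carcinomas. Among all genes, 46.7% passed, 23.2% and 23.5% in these directions. Bst2 rose in one tumour and fell in the other, and its difference was 3.68 ± 0.31 (adjusted p = 8.2e-09). Ifih1 and Oasl1, with differences of 2.63 ± 0.28 and 2.34 ± 0.36, fell in carcinomas and did not pass in adenomas. Psmb8, Trim25 and Oas2 rose in adenomas and fell in carcinomas (differences 1.74 ± 0.41, 1.88 ± 0.22 and 1.29 ± 0.26). For Stat2, lower in both tumours, the difference of 0.53 ± 0.26 did not pass (adjusted p = 0.11). The second Stat2 probe set did pass, at 0.68 (adjusted p = 0.0067 over all probe sets with a single symbol). For Gbp2, higher in both, the difference was -0.38 ± 0.53 (adjusted p = 0.58). Ifit2, also higher in both, had a larger rise in adenomas (0.93 ± 0.35, adjusted p = 0.035), a call lost in 13 settings, most of them the omission of 1 array, with adjusted p up to 0.15. For Usp18 the difference was -2.46 ± 0.51 (adjusted p = 0.00047).

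Markers of several cell types moved with this contrast. All 11 hepatocyte and all 10 endothelial markers were higher in adenomas than in carcinomas, with median log2 folds of 3.69 and 2.22. Of the immune lists, 6 of 7 B and plasma cell markers (median 0.55) and 5 of 6 neutrophil markers (0.62) were also higher. Of 17 macrophage and Kupffer cell markers 6 were higher and 1 was lower (0.32). Of 14 T and NK cell markers 4 were higher and 2 were lower (0.15). Among all genes 33.7% were higher and 28.7% lower. Pan-leukocyte markers had a median of 0.21 with 1 of 8 called. Hepatic stellate and fibroblast markers went the other way, with 6 of 8 lower in adenomas (-2.02), and MHC class II genes had a median of -0.56. The part of the cell makeup in the members' difference was not tested.

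Phenobarbital without a tumour gave 0 called members against untreated liver by limma, where 0.225% of all genes were called. At an unadjusted p under 0.05 there were 15 of 33, against 5.88% of all genes, and 29 of 33 had a positive log2 fold, against 50.2%. The median log2 fold of the members was 0.45, against 0.00 over all genes. Arrays of the 2 groups did not overlap for 1 member, Ifi35 (3.03%, against 2.43% of all genes).

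Usp18, Ifit1, Gbp3, Xaf1 and Rtp4 had the largest folds. Usp18 read 9.41, 9.59, 7.36, 9.04 and 9.26 with phenobarbital, against 7.04, 7.31, 7.03, 8.30 and 6.96 without it (log2 fold 1.60 ± 0.36, adjusted p = 0.08). Apart from phenobarbital array 3 all treated arrays lay above all untreated ones. Ifit1 read 8.99, 9.31, 6.97, 8.33 and 8.62 with phenobarbital, against 7.01, 6.82, 6.60, 8.51 and 6.47 without it (log2 fold 1.36 ± 0.43, adjusted p = 0.45). Here phenobarbital array 3 was at the level of the untreated arrays and untreated array 4 at that of the treated ones. Gbp3, Xaf1 and Rtp4 had log2 folds of 1.28 ± 0.37, 1.15 ± 0.36 and 1.12 ± 0.29 (adjusted p = 0.35, 0.45 and 0.2).

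Other members had folds near 0. Cxcl10 read 6.46, 7.03, 6.31, 5.96 and 6.35 with phenobarbital, against 5.99, 6.54, 6.36, 8.20 and 6.07 without it (log2 fold -0.21 ± 0.46). Cxcl9, Gbp2 and Irf1 had log2 folds of 0.02, 0.03 and 0.01, and Psmb8 one of 0.29 ± 0.29. Mx1, Oas2 and Trim25 were also within 0.02 of 0. The GTPases Irgm1 and Igtp had 0.71 ± 0.33 and 0.62 ± 0.41. Whether any member passed depended on the arrays and the settings used. Without untreated array 4, Usp18 passed (log2 fold 1.85, adjusted p = 0.037), and without phenobarbital array 3 it did as well (2.0, adjusted p = 0.0018). With array quality weights 8 members passed, all higher with phenobarbital (Usp18, Gbp3, Ifit1, Xaf1, Rtp4, Oasl2, Oasl1 and Eif2ak2), and with only the non-tumour groups in the fit Rtp4 passed (adjusted p = 0.047).

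**Figure D4:**
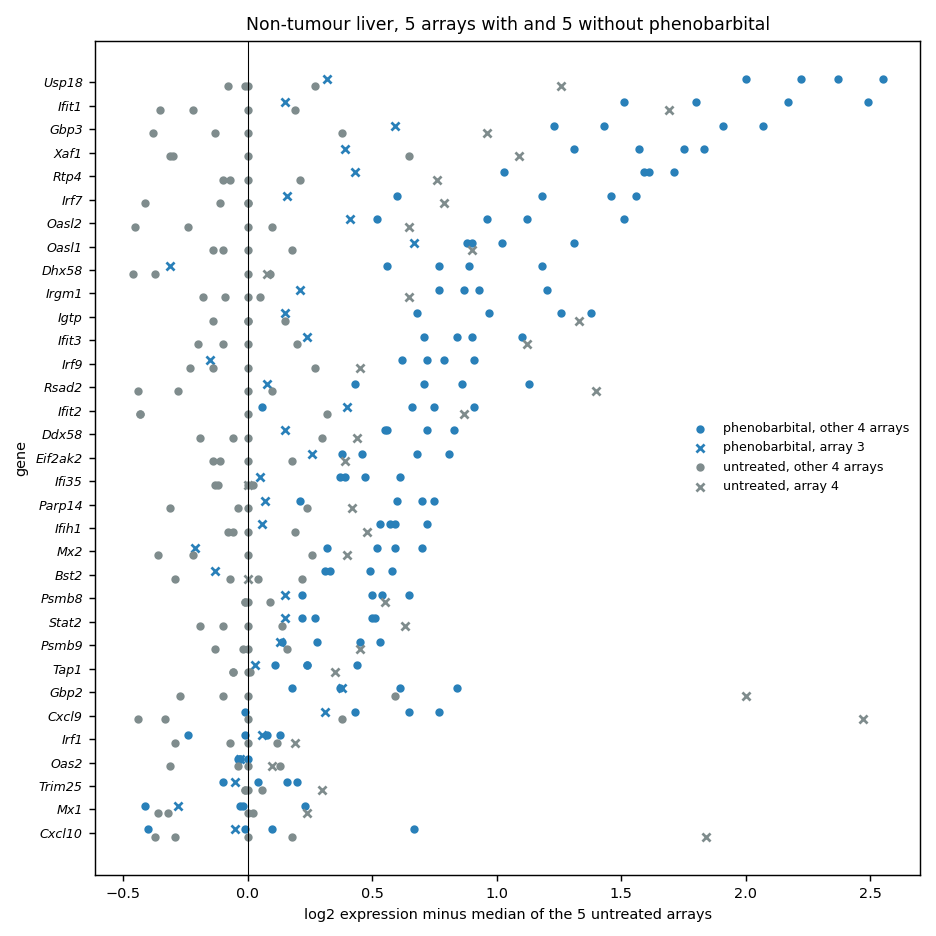
Log2 expression of each member on the 5 phenobarbital arrays (blue, upper of each pair of rows) and the 5 untreated arrays (grey, lower), as the difference from the untreated median; crosses mark phenobarbital array 3 and untreated array 4. The blue dots lie right of most grey dots for the upper genes, where the blue cross lies left of the other blue dots and the grey cross right of the other grey dots.

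Within groups the members moved together, array by array. Untreated array 4 was the highest of its group for 29 of the 33 members, against 21.9% of all genes, and stood 0.64 above the group median at the median member. Phenobarbital array 3 was the lowest of its group for 25, against 23.2% of all genes, and stood 0.46 below. Phenobarbital array 2 was highest for 20. In carcinomas array 4 was highest for 17 and array 2 lowest for 18, and in adenomas array 3 was highest for 19 and array 2 lowest for 21. The median SD of a member was 0.53 in adenomas and 0.49 in carcinomas, against 0.31 with phenobarbital and 0.32 in untreated liver, in each group more than the median SD of all genes (0.23, 0.21, 0.14 and 0.17 in the same order).

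Several lists of immune markers were also high on untreated array 4, though not all. The mean level of 14 T and NK cell markers was 5.63 there and 5.17 to 5.28 on the other untreated arrays. The 7 MHC class II genes averaged 8.80, against 7.73 to 8.26, and the 8 pan-leukocyte markers 8.19, against 7.16 to 7.88. On the same array B and plasma cell markers (5.64, others 5.74 to 6.00) and neutrophil markers (5.79, others 5.82 to 6.13) were the lowest of the group. The gamma-induced chemokines Cxcl9 and Cxcl10 showed the gap most, at 10.86 and 8.20 on array 4 and at most 8.77 and 6.54 on the rest. Phenobarbital array 3 did not follow the same pattern: its MHC class II mean was the highest of its group at 8.61, and its T and NK mean too, at 5.45. Adenoma array 2, low for the members, was the lowest adenoma for pan-leukocyte markers, at 7.71 against 8.68 to 9.07. Carcinoma array 2 was the lowest carcinoma for hepatocyte markers, at 6.59, and also for pan-leukocyte markers, at 7.77. The part of these cells in the members' levels was not tested.

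**Figure D5:**
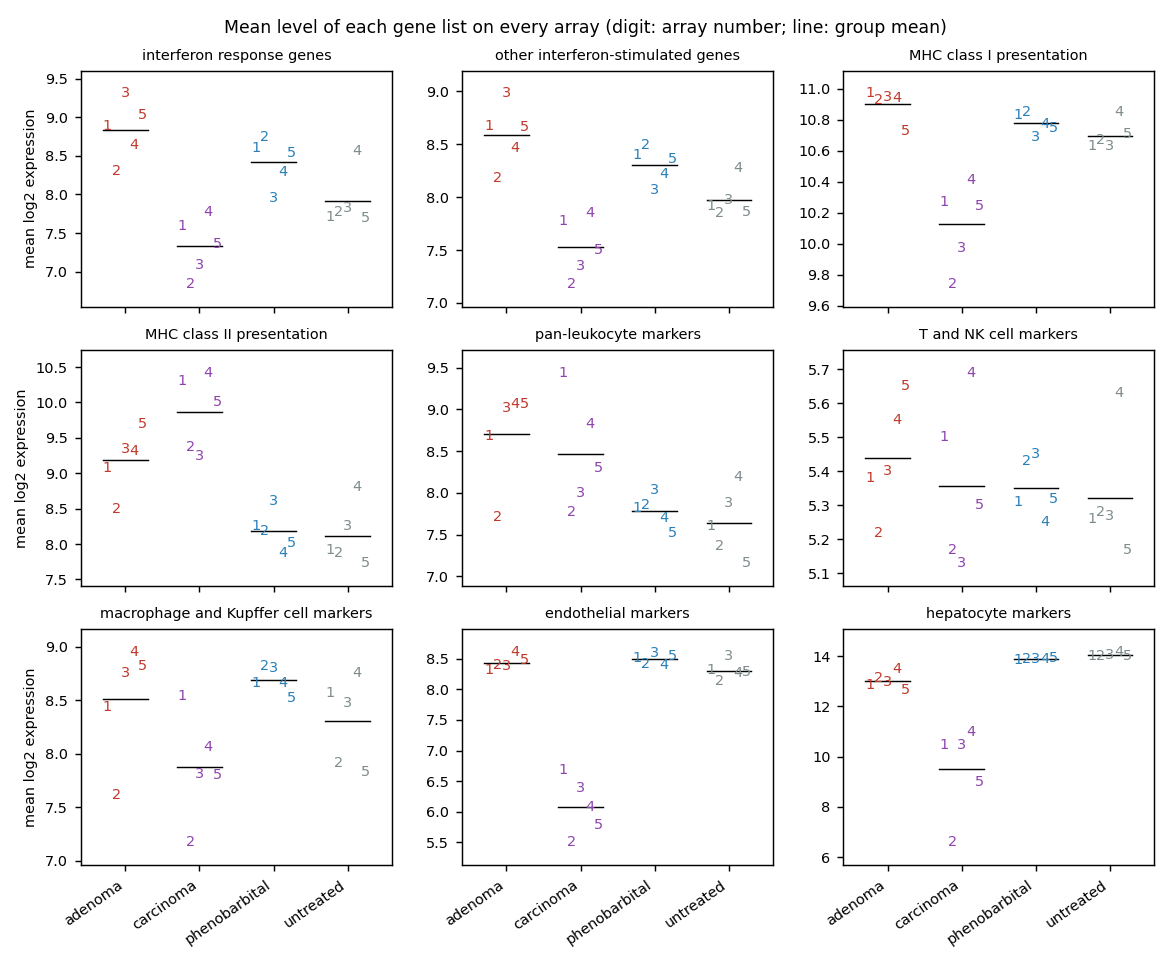
Mean log2 expression of 9 gene lists on each array, where digits are array numbers within a group, lines are group means, and each panel has its own range. The interferon response genes and the other interferon-stimulated genes are highest in adenomas and lowest in carcinomas; hepatocyte and endothelial markers are low in carcinomas, and array 4 is high among the untreated arrays in the interferon, MHC class II, leukocyte and T and NK cell panels.

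Upstream of the members in the pathway, the interferons themselves were dim. Ifnb1 had log2 folds of -0.24 in both tumour comparisons and Ifng of 0.00 in adenomas and 0.06 in carcinomas, and neither passed. Of 10 measured ligand genes, 1 fell (Ifna2, -0.71 ± 0.11) and 0 rose in adenomas over phenobarbital liver, where 11.3% of all genes fell and 13.5% rose. In carcinomas over untreated liver 5 fell, led by Ifna2 (-1.06 ± 0.11), and 1 rose (Ifnz, 1.71 ± 0.15), against 37.7% and 31.5% of all genes. Between the tumours 7 were higher and 1, Ifnz, was lower in adenomas (-1.69 ± 0.15), against 33.7% and 28.7% of all genes. Receptor chains and kinases changed too. Ifnar2 read 9.04, 8.37, 8.46, 9.12 and 8.77 in carcinomas, against 10.46 to 10.74 in untreated liver, a fall of -1.81 ± 0.15 (adjusted p = 1.2e-09), and had -0.17 ± 0.15 in adenomas. Ifnar1 rose in both tumours (0.74 ± 0.13 in adenomas, 0.46 ± 0.13 in carcinomas), as did the gamma receptor chains Ifngr1 (1.20 ± 0.18 and 0.88 ± 0.18) and Ifngr2 (0.79 ± 0.15 and 0.64 ± 0.15). In carcinomas the kinase Jak1 fell by -0.61 ± 0.10 and Jak2 rose by 1.29 ± 0.19.

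Genes that sense nucleic acids and genes that restrain the pathway were also read. Mavs, the adaptor on mitochondria through which Ifih1 and Ddx58 signal, fell by -1.87 ± 0.13 in carcinomas and differed between adenomas and carcinomas by 1.90 ± 0.13. Among 18 other sensing genes, Mavs included, 8 fell and 3 rose in carcinomas, where 37.7% of all genes fell and 31.5% rose. In adenomas 3 rose and 0 fell, where 13.5% of all genes rose, so both counts lay near or below the background. Of the 3, Zbp1, a sensor of Z-form nucleic acids, rose most (1.30 ± 0.38). Of 10 negative regulators, 5 rose in carcinomas, led by Nlrc3 (4.08 ± 0.39) and Socs3 (2.37 ± 0.36), and 3 fell. Socs3 is a feedback inhibitor of cytokine receptors. It also rose in adenomas, by 1.09 ± 0.36. Irf2, a repressor at ISRE sites, fell in both tumours (-0.81 ± 0.13 in adenomas and -1.21 ± 0.13 in carcinomas).

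A longer list of interferon-stimulated genes outside the 35 was read in the same way. Of 51 measured, 39 were higher and 4 lower in adenomas than in carcinomas (median log2 fold 1.04), where 33.7% and 28.7% of all genes were. In adenomas over phenobarbital liver 9 rose and 2 fell (0.20), against 13.5% and 11.3% of all genes, so the share of falls lay below the background. In carcinomas over untreated liver 24 fell and 7 rose (-0.33), against 37.7% and 31.5% of all genes. With phenobarbital alone their median log2 fold was 0.25. Oas1a, an oligoadenylate synthetase, led the rises in adenomas (1.74 ± 0.35), and Lgals9, which encodes galectin-9, the falls in carcinomas (-4.12 ± 0.14). Ifitm1, which blocks viral entry, rose in carcinomas (2.87 ± 0.51) and fell in adenomas (-1.42 ± 0.51). Of 13 genes of MHC class I presentation, 8 fell and 0 rose in carcinomas, led by the peptide trimming protease Erap1 (-1.74 ± 0.16), and in adenomas the transporter subunit Tap2 and tapasin (Tapbp) rose (0.84 ± 0.16 and 0.67 ± 0.17) and Psme1 fell (-0.47 ± 0.17). MHC class II genes, expressed by antigen-presenting cells, went the other way in carcinomas: 6 of 7 rose there and 6 of 7 rose in adenomas, with median log2 folds of 1.88 and 1.12. Cxcl11, another CXCR3 ligand, fell in both tumours (-0.76 ± 0.17 in adenomas and -2.91 ± 0.17 in carcinomas).

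Of the 33 members, 19 had a single probe set and 14 had several. In none of these 14 did another probe set pass the test against the direction of a called one. For Rsad2 the other probe sets passed where the main one did not, with log2 folds of -1.29 and -1.17 in carcinomas over untreated liver (adjusted p = 0.038 and 0.014 over all probe sets with a single symbol). For Eif2ak2 the reverse held: its other probe sets had -0.03 and 0.10 in carcinomas, and with the mean of its probe sets the log2 fold was -0.09 (adjusted p = 0.54). With the mean of all probe sets Ifi35 and Psmb8 no longer passed in that comparison either (-0.35 and -0.45, adjusted p = 0.08 and 0.062). The main probe sets of Ifi35 and Trim25 carry a suffix that marks probes shared between transcripts. In the promoter table, the 13 measured members with the ISRE letters and the 13 without them had similar counts: 8 in each set fell in carcinomas and 1 rose, and 11 and 12 were higher in adenomas than in carcinomas.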

How the data were processed

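The series matrix deposited by the authors holds log2 intensities summarised by probe set. RMA, which corrects background and normalizes between arrays, is named without a version in the submitters' processing notes. Such values compress differences between dim probe sets. The table held 45037 probe sets. The platform annotation gave 34945 a single symbol, which yielded 18193 genes. Tests were two-sided moderated tests of limma (version 3.58.1, under R 4.3.3) from 1 linear model of the 20 arrays (16 residual degrees of freedom), with Benjamini-Hochberg adjustment over all genes within a comparison and a threshold of 0.05. The fit was tested on simulated data. SE is that of the log2 fold in this fit. Adenomas were set against phenobarbital liver and carcinomas against untreated liver, the control groups the labels name. The number of arrays limits the precision, and p-values measure the spread between samples, which may be technical.

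The members and lists were chosen with earlier results of these data known, so counts over them are descriptions. Values on every array are given for called members with the 4 largest rises and falls of a comparison and for Irf7, Stat2, Ifit1, Cxcl10, Psmb8, Gbp2 and Ddx58; up to 3 rising and 3 falling called genes of other lists could be named, with the receptors, Ifnb1, Ifng and Apc. Results were recomputed with only probe sets of at least 6 on at least 5 arrays, with the mean of all probe sets, dropping probe sets ending in _x_at, fitting only the groups compared, trend and robust settings, centring, quantile normalization, array weights, the replicate number as a block, and leaving out each array, or untreated arrays 3 and 4. Promoter windows were searched as text (Python 3.11.15, pandas 2.3.3); matplotlib 3.10.9 drew the figures.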

Additional observations from a re-analysis of the deposited data

Results flagged for a closer look

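Among 132 groups of 5 arrays (33 members in 4 groups), 16 held an array whose gap to the nearest other array, as a share of the group's range, was above Dixon's critical value for 5 samples; chance alone marks about 1 in 20. Of these, 9 were untreated array 4, which was high for Ifit1 (8.51, others 6.47 to 7.01), Usp18 (8.30, others 6.96 to 7.31), Trim25 (11.05), Cxcl9 (10.86), Cxcl10 (8.20), Psmb8 (9.66), Tap1 (8.14), Igtp (10.46) and Irgm1 (10.27). Phenobarbital array 3 was low for Ifih1 (9.66, others 10.13 to 10.32), Irf9 (7.67) and Usp18 (7.36, others 9.04 to 9.59). The other 4 were Irf9 on adenoma array 2 (6.77), Ifit2 on adenoma array 1 (8.34), Oas2 on carcinoma array 1 (7.04) and Tap1 on adenoma array 5 (7.91).

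The tumour effect differed between adenomas and carcinomas, by limma's test of the difference itself, for 18 members. The difference on the log2 scale was 3.68 for Bst2, 2.63 for Ifih1, 2.37 for Cxcl10, 2.34 for Oasl1, 2.10 for Rsad2, 2.07 for Cxcl9, 1.88 for Trim25, 1.75 for Parp14, 1.74 for Psmb8, 1.73 for Mx1, 1.56 for Ifit3, 1.45 for Psmb9, 1.33 for Rtp4, 1.29 for Oas2, 1.25 for Dhx58, 0.93 for Ifit2, 0.88 for Tap1 and -2.46 for Usp18. Adjusted p ran from 8.2e-09 for Bst2 to 0.035 for Ifit2. Diet and tumour type change together in this contrast and cannot be told apart.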

How the results depend on the processing

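No count or median of the members changed direction under the alternatives run, and of 214 such values 209 stayed within 1.5 times the main count or within the spread. With phenobarbital alone, 0 members passed, against 1 with only the non-tumour groups fitted, 8 with array weights, and 1 each without untreated array 4 or phenobarbital array 3 (0 to 1 over arrays left out in turn; median fold 0.38 to 0.53). Leaving out single arrays gave 6 to 10 calls in adenomas over phenobarbital liver (6 without adenoma array 3; median 0.23 to 0.45), 17 to 24 in carcinomas over untreated liver (-0.88 to -0.57), 28 to 31 in adenomas over carcinomas (1.39 to 1.73) and 17 to 19 for the difference of the tumour effects (0.80 to 1.23). Without untreated arrays 3 and 4, carcinomas had 13 falls and 4 rises, and Cxcl9 was lost (-0.72, adjusted p = 0.1). Calls kept in every setting that held the gene were 15 of 24 for carcinomas over untreated liver and 6 of 10 for adenomas over phenobarbital liver. They were 27 of 30 for adenomas over carcinomas and 15 of 18 for the difference. All but the first of these counts include Mx1, whose calls were not checked under the filter on dim probe sets. The cause of the losses was not tested. The filter on dim probe sets left 11733 genes and removed Mx1. Across all genes, calls with phenobarbital alone were 41, against 278 with only the non-tumour groups fitted and 218 with array weights. Same-numbered arrays of different groups had deviations over all genes that correlated at -0.11 to 0.13 over 30 pairs. Such correlations cannot exclude that same-numbered samples came from the same animal, which the labels do not give. With the replicate number as a block 0, 22, 9, 29 and 18 members passed for phenobarbital, carcinomas, adenomas, adenomas over carcinomas and the difference. Usp18 (adjusted p = 0.057) was then lost between the tumours. Signal near background limits Mx1 outside adenomas and the interferon ligands, whose mean level was 4.49 to 4.87 on every array. Other members were dim in carcinomas, below the filter's level of 6. Among them were Oasl1, Dhx58, Stat2 and Mx2 (means 5.43, 5.20, 5.35 and 5.31), so the sizes of their folds against carcinomas are limited too.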
